A study of Rattus norvegicus with 69 samples.

Results

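The Leydig cell genes of steroid synthesis were followed in RNA from rat testis: Lhcgr, Scarb1, Star, Cyp11a1, Hsd3b1, Cyp17a1, Hsd17b3, Hsd11b1, Insl3 and Nr5a1. They are 10 of 14217 genes with a symbol on the array, and every probe set that the platform annotation pairs with exactly 1 of them was used. These were 14 of 31042 probe sets, with 2 each for Star, Lhcgr, Nr5a1 and Scarb1 and 1 for each of the other 6 genes. A further probe set, shared by Hsd3b1 and its close relatives, was counted and not used. Of 69 arrays, 4 held Sertoli cells, 3 spermatogonia plus early spermatocytes (early germ cells from here on), 4 pachytene spermatocytes, 4 round spermatids, 5 whole testis and 49 seminiferous tubules cut into 10 groups of stages. All animals were Sprague Dawley rats with no treatment named. Tubules, Sertoli cells, pachytene spermatocytes and round spermatids came from rats 55 to 60 days old, and early germ cells from younger rats, 18 to 20 days old. For whole testis no age was given in the sources used here. Each tubule sample pooled tubules of 2 rats, Sertoli cells were about 85% pure and germ cells, separated by elutriation after enzyme dispersal, 85% to 95%. None of the preparations was labelled as Leydig cells. Stage groups are named after the sample titles. The source names of the IX-XI samples read IX-XII, and stage IV-V had replicates 2 to 5. Tubule samples were described as independent. For the other groups nothing said that replicates came from separate animals, so that the spread between their samples may be technical. The p-values between preparations rest on a spread within groups that was pooled over all 69 samples, 49 of them tubules. They therefore do not measure the spread of the compared groups alone.

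Leydig cells lie between the seminiferous tubules, outside the epithelium in which germ cells and Sertoli cells sit, and make testosterone under luteinizing hormone. Cholesterol enters the cell through lipoprotein receptors, is carried to the inner mitochondrial membrane, and is cut to pregnenolone there. Dehydrogenases and a further cytochrome P450 then turn pregnenolone into androgens, and the nuclear receptor encoded by Nr5a1 binds promoters of several of these genes. Nr5a1 is also known from Sertoli cells, and Scarb1 from Sertoli cells that take up germ cell remnants.

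Promoters of 6 of the 10 genes were in the RefSeq table of the rat assembly GRCr8. Those of Cyp17a1, Hsd11b1, Scarb1 and Star were not used here. The 250 bases before the listed start were searched on both strands for AAGGTCA, a binding motif of the Nr5a1 protein. It was in 0 of the 6 and in 3.99% of all 33469 promoters. The shorter core AGGTCA, searched likewise, which the longer motif contains and which was added after it, was in 3 of the 6 (Lhcgr, Cyp11a1 and Insl3) and in 14.1% of all. The promoters of Cyp11a1 and Hsd3b1, which shared the pattern across samples, and of Hsd17b3, which departed from it, are shown 5′ to 3′ with the core in capitals. They lie at chr8:67318415-67318664 (plus strand), chr2:188864695-188864944 (minus strand) and chr17:1032708-1032957 (plus strand).
Cyp11a1: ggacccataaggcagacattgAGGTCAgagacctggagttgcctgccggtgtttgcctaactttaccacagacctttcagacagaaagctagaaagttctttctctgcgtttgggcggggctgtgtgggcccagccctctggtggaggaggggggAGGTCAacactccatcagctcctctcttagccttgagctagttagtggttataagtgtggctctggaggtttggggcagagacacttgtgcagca
Hsd3b1: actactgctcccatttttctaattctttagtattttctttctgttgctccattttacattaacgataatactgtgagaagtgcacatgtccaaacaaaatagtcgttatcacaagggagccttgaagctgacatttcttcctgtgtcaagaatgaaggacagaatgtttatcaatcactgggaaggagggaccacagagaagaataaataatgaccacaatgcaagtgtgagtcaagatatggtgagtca
Hsd17b3: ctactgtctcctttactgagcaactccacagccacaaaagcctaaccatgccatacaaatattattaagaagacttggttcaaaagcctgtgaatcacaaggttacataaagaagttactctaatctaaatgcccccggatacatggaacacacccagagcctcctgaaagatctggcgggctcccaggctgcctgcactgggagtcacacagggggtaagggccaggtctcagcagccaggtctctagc
Cyp11a1 held the core at 229 and at 95 bases before its start. In Hsd3b1 and Hsd17b3 these letters were not found within 250 bases.

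Levels are array signals on the linear scale of the deposited table, in which each array was scaled to the same trimmed mean, and means are given ± SD. Detection calls were not part of the data, and whether a low signal exceeded background is not known. As a guide, the median of the whole table was 43.7. Signals of different probe sets are not set against each other. Array medians were between 30.9 and 58.2, and samples of 1 group correlated on average with r between 0.895 and 0.968. The ratio of 3′ to 5′ actin signal was between 1.26 and 3.64, highest in early germ cell replicate 3. The same ratio for GAPDH was between 0.897 and 2.44 over all arrays and between 1.75 and 2.44 in round spermatids. In tubules of stage VIIc,d it was 1.78 in replicate 2 and 2.05 in replicate 3, where the actin ratio was 2.86 and 2.71. Of the defining markers tested, 6 of 9 were called higher in Sertoli cells, 3 of 5 in early germ cells, 0 of 4 in pachytene spermatocytes and 2 of 5 in round spermatids than in tubules, which hold these cells too. Of all probe sets, 23.9%, 22.4%, 6.32% and 3.76% were called higher in these comparisons. The spermatogonial list also had 3 of 5 higher in Sertoli cells than in tubules. Of these 5 genes, 1 was higher and 2 lower in Sertoli cells than in early germ cells (10.4% and 27.2% of all). Uchl1 averaged 1181 in Sertoli cells, 451 in early germ cells and 267 in tubules. In pachytene spermatocytes Sycp1 was 1.79-fold higher (adjusted p = 0.000962) and Hspa2 averaged 3703, against 3927 in tubules. In round spermatids Acrv1 was called (1545, against 1092 in tubules), while Tnp1 and Prm1 averaged 4255 and 5389, against 7563 and 11092 in tubules. The Sertoli genes Shbg and Cldn11 averaged 2236 and 2854 in Sertoli cells, against 309 and 917 in tubules, while Rhox5 averaged 43.0, against 51.1 in tubules. The spermatogonial gene Kit was higher in early germ cells (150.3, against 32.3 in tubules), while Gfra1 was lower (58.2, against 258 in tubules).

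Lhcgr encodes the receptor for luteinizing hormone. With probe set 1387423_at its signal was 535, 787 and 555 in early germ cells, 129, 148, 175 and 144 in Sertoli cells and 144, 102, 136, 98.1 and 96.1 in whole testis. Across tubules it ran from 23.6 to 89.9 (median 65.2). All early germ cell samples lay above every other sample, and Sertoli cells overlapped with whole testis. Pachytene spermatocytes (60.2 ± 4.00) and round spermatids (52.2 ± 2.84) lay within the range of tubules. The other probe set, 1369033_at, was dim: it averaged 96.8 ± 28.4 in early germ cells, 29.5 ± 10.5 in Sertoli cells, 26.7 ± 4.23 in whole testis and 20.9 (3.74 to 45.5) in tubules. It gave the same top group, and exceeded the median of the table in 4 samples of 69.

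Scarb1 encodes the receptor that takes up cholesterol from high-density lipoprotein, and Star the protein that moves cholesterol into the mitochondrion. Scarb1 (1386956_at) was 310.3, 294, 433 and 407 in Sertoli cells, 468, 299 and 231 in early germ cells and 131, 85.4, 104, 83.3 and 99.8 in whole testis. Tubules ran from 10.6 to 92.8 (median 52.7), so that the lowest whole testis samples overlapped with the highest tubules. Its 1367855_at gave the same order of the leading groups, at 343 ± 44.9 in Sertoli cells, 229 ± 81.4 in early germ cells, 65.3 ± 15.7 in whole testis and 15.6 ± 8.86 in tubules. The 2 probe sets of Scarb1 correlated with r = 0.933 over the 15 group means. Star (1368406_at) was 338, 383, 388 and 363 in Sertoli cells, 292, 435 and 687 in early germ cells and 134, 124, 105, 179 and 136 in whole testis. In tubules it ran from 7.05 to 72.7 (median 41.3). Sertoli cells and early germ cells overlapped with each other, and both lay above all whole testis samples, which lay above all tubules. With 1387174_a_at the level was 415 ± 62.0 in Sertoli cells, 330.4 ± 13.7 in early germ cells, 93.5 ± 14.6 in whole testis and 13.0 ± 8.78 in tubules. Here Sertoli cells lay above early germ cells without overlap, and the 2 probe sets of Star correlated with r = 0.958 over the 15 group means.

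Cyp11a1 cuts the side chain of cholesterol and makes pregnenolone. Its signal was 818, 1059.5, 534 and 719 in Sertoli cells, 598, 635 and 608 in early germ cells and 220.4, 256, 166, 243 and 161 in whole testis, and in tubules it ran from 41.7 to 139 (median 83.2). The first 2 groups overlapped and lay above whole testis, which lay above every tubule sample. Hsd3b1 converts pregnenolone to progesterone. It had 1041, 1415, 1199.5 and 1223 in Sertoli cells, 1902, 2810.3 and 3563 in early germ cells and 261, 365, 284, 261 and 299.9 in whole testis. In tubules Hsd3b1 ran from 2.82 to 107 (median 6.48), and 2 of the 49 tubule samples exceeded the median of the table. All 3 samples of early germ cells lay above all Sertoli cell samples, which lay above whole testis. The probe set shared with its relatives was dim, at 6.96 ± 3.82 in Sertoli cells, 57.0 ± 26.3 in early germ cells, 26.1 ± 7.62 in whole testis and 36.0 ± 12.2 in tubules. Its mean was likewise highest in early germ cells, but lowest in Sertoli cells. It exceeded the median of the table in 0 samples of Sertoli cells, 0 of whole testis and 13 of the 49 tubule samples.

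Cyp17a1 carries pregnenolone and progesterone on to androgens by a hydroxylase and a lyase step. It had 1098, 1302, 1294 and 1602 in Sertoli cells, 2256, 3004 and 3650.1 in early germ cells and 563, 482, 608, 688 and 599 in whole testis. Tubules ran from 1.93 to 41.2 (median 5.67), and none of the 49 exceeded the median of the table. The order was the one seen for Hsd3b1, with no overlap between any of these 4 groups. In pachytene spermatocytes Cyp17a1 was 43.4, 8.78, 2.32 and 42.7 and in round spermatids 21.4, 33.5, 31.2 and 22.9, below the median of the table throughout. Hsd17b3, the testis enzyme of the last step to testosterone, did not share this order. It was 100.4, 95.9, 118 and 99.6 in Sertoli cells, 33.6, 30.9 and 71.9 in early germ cells and 33.5, 46.2, 29.5, 53.5 and 33.3 in whole testis, and ran from 6.10 to 87.5 (median 43.1) in tubules. Sertoli cells lay above all other groups, and the remaining 5 groups overlapped around the median of the table.

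Hsd11b1 interconverts active and inactive glucocorticoids and is abundant in rat Leydig cells. It was 885, 1261, 941 and 936 in Sertoli cells, 129, 177 and 228 in early germ cells and 260.2, 283, 313, 319 and 286 in whole testis, against a range from 5.03 to 32.9 (median 17.0) in tubules. Whole testis lay between the 2 cell preparations, with no overlap among the 4 groups. Insl3 is the peptide hormone of Leydig cells that guides testis descent. Its signal was 1421, 2017, 1870.1 and 1862 in Sertoli cells, 796, 1086 and 692 in early germ cells and 1069, 509, 1060.0, 808 and 1033 in whole testis, and ran from 13.1 to 93.8 (median 55.0) in tubules. Sertoli cells lay above whole testis, which overlapped with early germ cells. Nr5a1 encodes the nuclear receptor steroidogenic factor. With 1393286_at it was 332, 212, 346 and 274 in Sertoli cells, 283, 378 and 243 in early germ cells and 91.5, 105, 106, 83.9 and 112 in whole testis, and ran from 26.0 to 114 (median 86.5) in tubules. The first 2 groups overlapped with each other, as did whole testis with tubules. Its second probe set, 1369859_at, was 142, 67.5, 88.8 and 58.8 in Sertoli cells and at most 8.17 in any other sample. The 2 probe sets of Nr5a1 therefore disagreed on early germ cells (302 ± 69.4 against 3.81 ± 3.78) and correlated with r = 0.675 over the 15 group means.

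**Figure D1:**
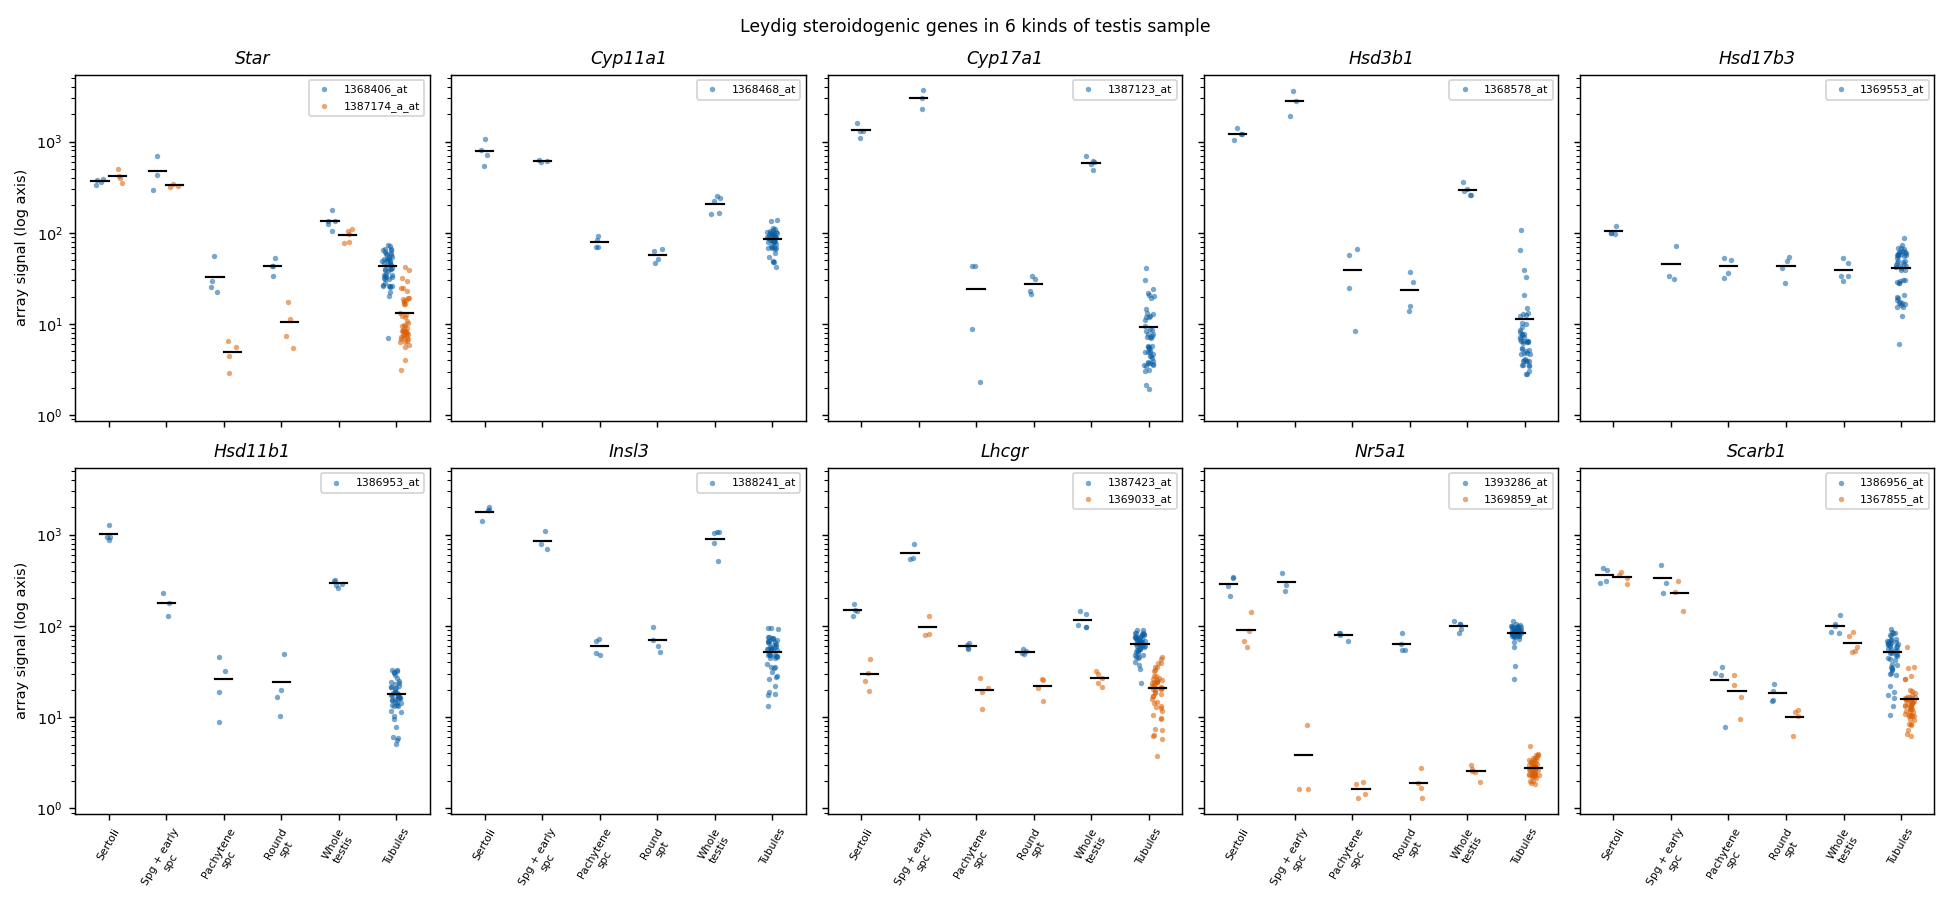
Array signal of each sample (points, log axis) and group mean (bars) for the 10 genes in 6 kinds of sample, with the probe sets of a gene in 2 colours. Except for Hsd17b3 and the second probe sets of Lhcgr and Nr5a1, Sertoli cells and spermatogonia plus early spermatocytes both lie above all tubule samples.

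Whole testis holds the interstitium as well as the tubules, and was set against dissected tubules. Cyp17a1 was 46-fold higher in whole testis (adjusted p = 1.66e-24), Hsd3b1 22.6-fold, Insl3 16.2-fold and Hsd11b1 13.6-fold (adjusted p = 5.58e-22). Star (3.06- and 5.88-fold), Scarb1 (2.01- and 3.55-fold) and Cyp11a1 (2.4-fold, adjusted p = 1.15e-09) were higher by less. Nearly all tubule signals of Cyp17a1, Hsd3b1 and Hsd11b1 were under the median of the table. Over the alternative settings, which include other constants added before log2, Cyp17a1 ran from 15.2- to 71.1-fold, Hsd3b1 from 7.83- to 34.6-fold and Hsd11b1 from 6.56- to 16.9-fold, with the call kept. In all, 9 of the 14 probe sets, of 7 genes, were higher and 0 lower at an adjusted p under 0.05 and at least 2-fold. By limma at an unadjusted p under 0.05, 10 were higher and 0 lower. Of all 24046 probe sets tested, 2.59% were called higher and 1.15% lower. For 8 member probe sets every whole testis sample lay above every tubule sample, which held for 0.798% of all. The median log2 change was 1.44 over the 14, beside -0.04 over all. Lhcgr (1.77-fold, adjusted p = 3.54e-05) missed the fold threshold, and Nr5a1 (1.18-fold, adjusted p = 0.153) and Hsd17b3 (1.04-fold, adjusted p = 0.9) were not called. Fold changes are computed on log2(signal + 5.11) and understate the change of dim probe sets. In such bulk samples fewer cells of a type and less RNA per cell cannot be told apart. The call for Scarb1 1386956_at ended without any 1 of 13 samples, 2 of whole testis and 11 of tubules, with a log2 change between 0.91 and 1.07 over all samples left out in turn, and with 32 added (0.71).

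The isolated cells were the next question, since none was labelled as a Leydig preparation. Against tubules, 13 of 14 probe sets of all 10 genes were higher in Sertoli cells and 0 lower, led by Cyp17a1 (103-fold), Hsd3b1 (92.7-fold), Hsd11b1 (46-fold) and Insl3 (33.2-fold, adjusted p = 6.43e-28). Of all probe sets, 23.9% were called higher and 35.5% lower in that comparison. The 13 include Nr5a1 1369859_at, which passed the filter only through the Sertoli cell samples. The exception was Lhcgr 1369033_at (1.39-fold, adjusted p = 0.109), and Hsd17b3 (2.59-fold) and Lhcgr 1387423_at (2.28-fold) had the smallest changes among those called. Both fell under 2-fold with 32 added before log2 (log2 change 0.94 for Hsd17b3 and 0.93 for Lhcgr), and Lhcgr also after quantile normalization (0.93). Over the alternative settings Cyp17a1 ran from 33.2- to 159-fold, Hsd3b1 from 30.1- to 143-fold and Hsd11b1 from 20.9- to 60.9-fold in Sertoli cells, with the call kept. In early germ cells 12 of 14 were higher and 0 lower, beside 22.4% and 15.4% of all. The 12 include Lhcgr 1369033_at, which passed the filter only through the early germ cell samples. Cyp17a1 was 228-fold and Hsd3b1 204-fold higher (adjusted p = 7.59e-26), Insl3 15.8-fold, Star 9.87-fold and Lhcgr 9.25-fold. Over the settings Cyp17a1 ran from 72.7- to 354-fold and Hsd3b1 from 65.4- to 316-fold in early germ cells. Hsd17b3 (1.14-fold, adjusted p = 0.658) and Nr5a1 1369859_at (1.07-fold, adjusted p = 0.609) were not called. No sample overlapped with tubules for 13 probe sets in Sertoli cells and 12 in early germ cells, against 20.6% and 19.9% of all probe sets. Nr5a1 1369859_at and Lhcgr 1369033_at, which passed the filter through the group where they were higher, are again among these. At an unadjusted p under 0.05 limma likewise gave 13 and 12 higher and 0 lower. These comparisons share the tubule samples. Early germ cells came from younger rats than the tubules did, so that age and preparation cannot be told apart there.

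In later germ cells few of the probe sets were called. Hsd3b1 was called higher in pachytene spermatocytes (39.2 ± 27.3 against 11.3 ± 17.5 in tubules, 2.78-fold, adjusted p = 0.000445), 1 of 14 beside 6.32% of all. None was lower by limma at the threshold (10.8% of all), and 2 were at an unadjusted p under 0.05. In round spermatids Cyp17a1 (2.49-fold, adjusted p = 0.000384) and Hsd3b1 (2.09-fold, adjusted p = 0.0127) were higher, 2 of 14 beside 3.76% of all. Of all called probe sets there, 26.4% were higher as deposited and 40.7% after quantile normalization. Scarb1 1386956_at was lower there (18.2 ± 3.61 in round spermatids, 51.5 ± 20.5 in tubules, 2.25-fold, adjusted p = 0.000288), 1 of 14 beside 10.5%. For each of these calls the samples overlapped with tubules. No member lay wholly above or below tubules in pachytene spermatocytes (4.56% and 4.59% of all) or in round spermatids (1.04% and 5.49%). The called probe sets had mean levels below the median of the table in these germ cells. None of the called changes stayed at 2-fold when 32 in place of 5.11 was added before log2, and Scarb1 in round spermatids fell under it after quantile normalization (log2 change -0.93). Hsd3b1 in round spermatids also lost its call without replicate 1 (log2 change 0.86) or replicate 4 (0.97).

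**Figure D2:**
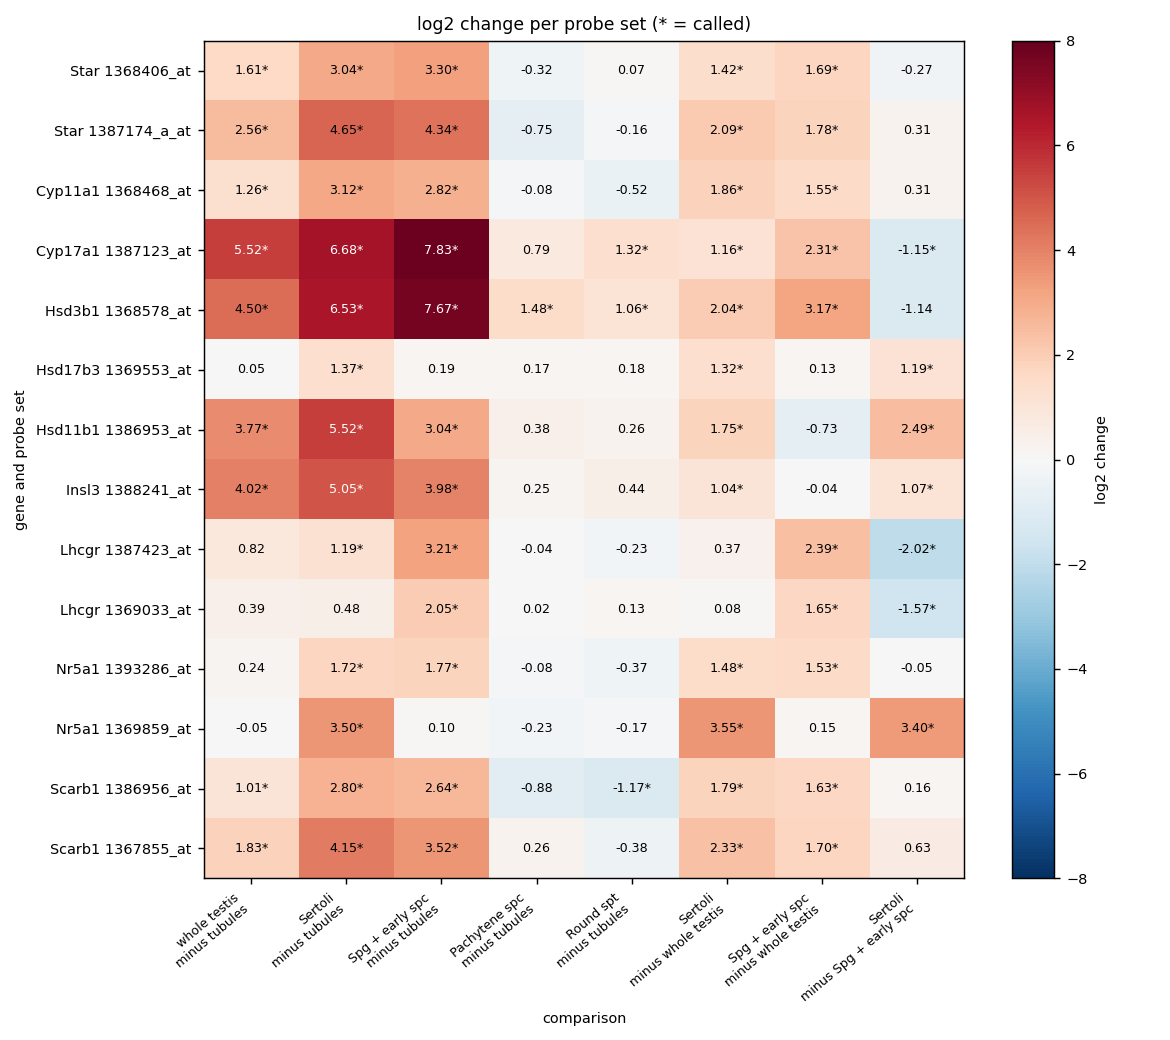
Log2 change of each of the 14 probe sets (rows) in the 8 comparisons (columns), as the coefficient of log2(signal + 5.11), with called changes starred. Changes against tubules reach 7.83 for Cyp17a1 in spermatogonia plus early spermatocytes, and most cells of the columns for pachytene spermatocytes and round spermatids lie near 0.

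Both cell preparations were also set against whole testis. In Sertoli cells 12 of 14 probe sets of 9 genes were higher than in whole testis and 0 lower, beside 21% and 30.6% of all, with all 12 free of overlap (28.3% of all). Changes of named genes ran from 2.05-fold for Insl3 (adjusted p = 0.00359) and 2.23-fold for Cyp17a1 (adjusted p = 0.0093) to 5.01-fold for Scarb1 1367855_at and 11.7-fold for Nr5a1 1369859_at. The last passed the filter only through the Sertoli cell samples. Lhcgr was not called (1.29-fold, adjusted p = 0.132, and 1.06-fold, adjusted p = 0.843). The call for Insl3 ended without Sertoli replicate 2 (log2 change 0.98) or whole testis replicate 2 (0.85), and that for Cyp17a1 with 1 added before log2 (adjusted p = 0.0595). Hsd17b3 lost its own with 32 added (log2 change 0.94). In early germ cells 10 of 14 probe sets of 7 genes were higher and 0 lower than in whole testis, beside 21% and 15% of all. At an unadjusted p under 0.05 limma gave 0 lower in Sertoli cells and 1, Hsd11b1, in early germ cells. Hsd3b1 was 9.02-fold, Lhcgr 5.23-fold and Cyp17a1 4.95-fold higher there (adjusted p = 8.66e-06). All 10 were free of overlap (30.9% of all). Lhcgr 1369033_at, 1 of the 10, passed the filter only through the early germ cell samples. Hsd11b1 lay below whole testis in all 3 samples, which held for 20% of all (1.66-fold, adjusted p = 0.0659), and Insl3 (0.975-fold, adjusted p = 0.94) and Hsd17b3 (1.1-fold, adjusted p = 0.814) were not called. The ratio of mean signals, cells over whole testis, is given as a description. In Sertoli cells it was 2.25 for Cyp17a1, 3.44 for Hsd11b1 and 4.15 for Hsd3b1. In early germ cells it was 5.05 for Cyp17a1, 0.609 for Hsd11b1 and 9.38 for Hsd3b1. Whether whole testis came from rats as young as those of the early germ cells is not known.

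Sertoli cells and early germ cells were then set against each other. Genes differed in both directions. Hsd11b1 was 5.6-fold (adjusted p = 2.86e-08), Hsd17b3 2.28-fold (adjusted p = 0.0179), Insl3 2.1-fold (adjusted p = 0.0104) and Nr5a1 1369859_at 10.6-fold higher in Sertoli cells. Lhcgr was 4.05-fold (adjusted p = 6.91e-10) and 2.97-fold (adjusted p = 0.000942) lower in Sertoli cells, and Cyp17a1 2.22-fold lower (adjusted p = 0.0296). That made 4 of 14 higher and 3 lower, beside 10.4% and 27.2% of all. These counts include Nr5a1 1369859_at and Lhcgr 1369033_at, each of which passed the filter through the group where it was higher. Free of overlap were 5 above and 4 below, beside 19.4% and 40.5% of all. Of all called probe sets 27.7% were higher as deposited and 48.1% after quantile normalization, and the median of all changes was -0.34 and -0.12. Hsd3b1, 2.2-fold lower with all Sertoli samples below all others, missed the threshold (adjusted p = 0.0617) and passed it when only these 7 samples were fitted (adjusted p = 0.00086) or with 32 added (adjusted p = 0.000369). Star, Cyp11a1, Scarb1 and Nr5a1 1393286_at were not called, with adjusted p between 0.123 and 0.849. Cyp17a1 lost its call without Sertoli replicate 1 (adjusted p = 0.0664), without early germ cell replicate 2 (0.0677) or 3 (0.118), and with 1 added before log2 (0.122). Without 1 sample of early germ cells, Insl3 lost its call (replicate 3, log2 change 0.93), as did Hsd17b3 (adjusted p = 0.0724 without replicate 1, log2 change 0.99 without replicate 2, 0.84 with 32 added). Lhcgr 1369033_at lost its own after quantile normalization (adjusted p = 0.087). The 2 preparations differ in the age of the rats as well as in cell type, and these cannot be told apart.

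Lists of cell type markers were followed in the same samples. The summed signal of 8 Leydig genes, all of them members here, was 5831 to 7682 in Sertoli cells, 6542 to 10054 in early germ cells and 2167 to 2702 in whole testis, against 218 to 460.3 in tubules. In pachytene spermatocytes it was 277 to 472 and in round spermatids 285 to 387. All 7 peritubular myoid genes and 5 of 6 endothelial genes were higher in Sertoli cells than in tubules, and likewise than in whole testis. Of all probe sets, 23.9% and 21% were called higher in these 2 comparisons. In early germ cells 1 of 7 and 1 of 6 were higher than in tubules (22.4% of all), and 0 of either than in whole testis (21%). In whole testis 2 of 7 and 1 of 6 were higher than in tubules (2.59%). The smooth muscle gene Tagln averaged 825 in Sertoli cells, against 36.9 in whole testis and 4.80 in tubules, while it was 3.73 in early germ cells. The summed myoid signal was 3397 to 7484 in Sertoli cells, 948 to 1086 in early germ cells, 871 to 1265 in whole testis and 531 to 989.6 in tubules. The endothelial sum was 609 to 1700.2 in Sertoli cells, 237 to 270.0 in early germ cells, 179.9 to 297 in whole testis and 101 to 288 in tubules. Most macrophage and blood genes were instead highest in early germ cells. Of 10 tested, 9 were higher there than in tubules and 8 than in whole testis, beside 22.4% and 21% of all probe sets. In Sertoli cells 3 were higher and 2 lower than in tubules, beside 23.9% and 35.5%. Mrc1 averaged 927 in Sertoli cells, 509 in early germ cells, 259 in whole testis and 158 in tubules. The summed signal of the 11 macrophage and blood genes was 1222 to 1329 in Sertoli cells, 3522 to 3875 in early germ cells, 893 to 1313 in whole testis and 297 to 795 in tubules. Hbb, a haemoglobin chain, averaged 52.5 in Sertoli cells, 1189 in early germ cells, 330.3 in whole testis and 20.6 in tubules. Of the 11 genes, 7 had a mean below the median of the table in Sertoli cells, among them C1qa (17.4) and Ptprc (10.5). The part of such cells in the levels of the steroidogenic genes was not tested.

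**Figure D3:**
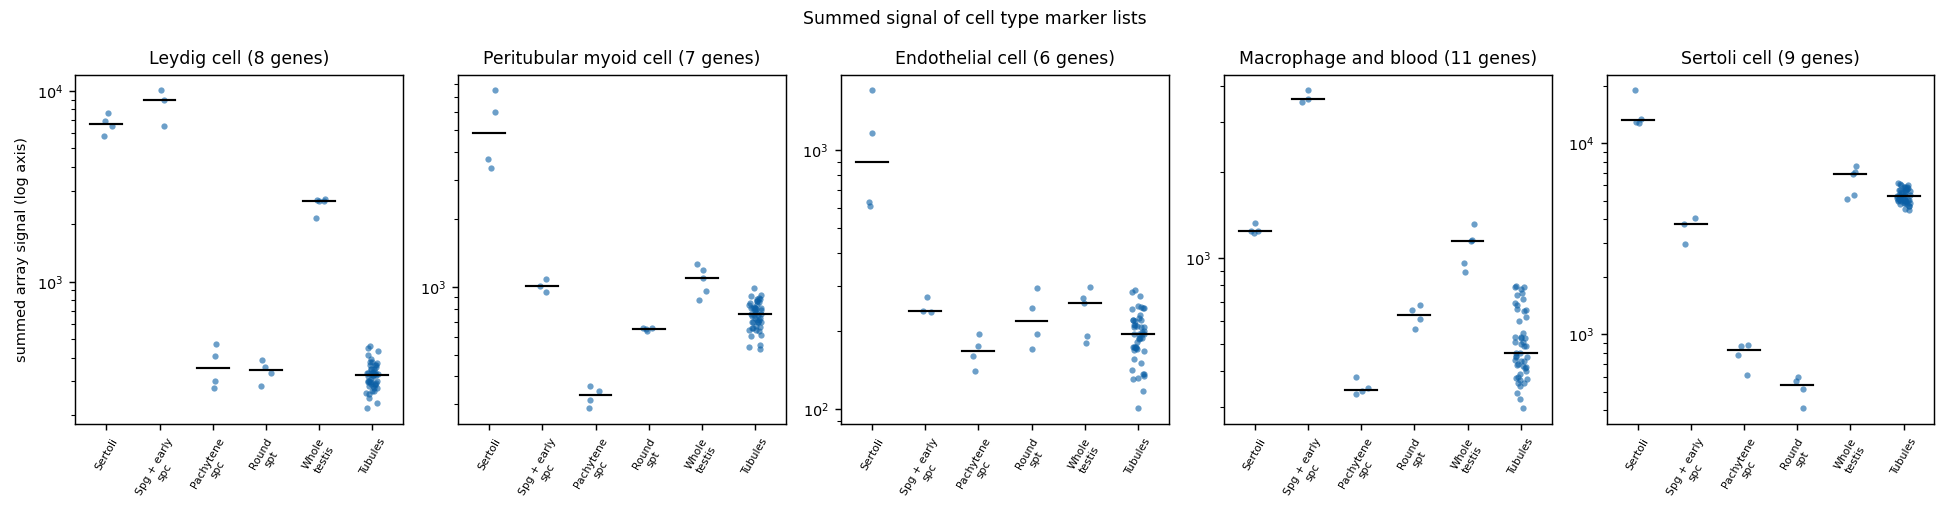
Summed array signal per sample (points, log axis) and median of the group (bars) for 5 lists of cell type markers. The Leydig sum is at least 5831 in every Sertoli cell sample and at or below 460.3 in every tubule sample, the myoid and endothelial sums are highest in Sertoli cells, and the macrophage and blood sum is highest in spermatogonia plus early spermatocytes.

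The 10 genes followed a shared pattern across the 15 groups to unlike degrees. The correlation of each gene with the mean of the other 9 was 0.976 for Hsd3b1, 0.973 for Cyp17a1, 0.964 for Cyp11a1, 0.962 for Insl3 and 0.956 for Star. It was 0.931 for Hsd11b1, 0.895 for Nr5a1, 0.886 for Scarb1 and 0.859 for Lhcgr, and 0.528 for Hsd17b3. These are descriptions over 15 group means, 10 of which are tubules and close to each other, so that few preparations set them. The 8 other genes most like the mean of the 10 were Cyp1b1 (r = 0.991), B2m (0.989), Adh1c (0.987), Fmo2 (0.983), Tmem176b (0.982), Psmb9 (0.982), Fech (0.980) and Vcam1 (0.980). Cyp1b1, a P450 that acts on steroids and foreign compounds, averaged 940.5 in Sertoli cells, 950.1 in early germ cells, 417 in whole testis and 95.7 in tubules. B2m, the light chain of class I histocompatibility molecules, averaged 2981 in Sertoli cells, 2739.5 in early germ cells, 1201 in whole testis and 155 in tubules.

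Further genes of steroid synthesis and Leydig cells were counted from a list of 38 names, of which 31 were on the array and 30 were tested. In whole testis 4 were higher and 2 lower than in tubules. Pdgfra, a growth factor receptor of interstitial cells, was 8.06-fold and the adhesion molecule Vcam1 4.99-fold higher. The oestrogen sulfotransferase gene Sult1e1 was 2.43-fold and the nuclear receptor gene Nr4a1 2.14-fold lower. In Sertoli cells 14 were higher and 4 lower than in tubules, with Vcam1 (45.2-fold), Pdgfra (9.19-fold) and Nr0b1 (8.57-fold) among them. Lipe, a lipase that frees stored cholesterol and is also known from germ cells, was 8.53-fold lower. In early germ cells 14 were higher and 1 lower, led by Pdgfra (56.8-fold), Vcam1 (21.9-fold) and Nr2f2 (18.2-fold), a nuclear receptor of interstitial cells. The 1 lower was Lipe (59.6-fold). Pachytene spermatocytes had 1 higher and 7 lower, and round spermatids 7 lower and 0 higher (5 higher by limma at an unadjusted p under 0.05), with Amhr2 (4.35- and 3.71-fold) and Mgst1 (3.47- and 4.35-fold) lower in both. Against whole testis, Sertoli cells had 14 higher and 3 lower, and early germ cells 12 higher and 2 lower. Nr4a1, an immediate early nuclear receptor, was 12.7-fold higher in Sertoli cells and 29.5-fold higher in early germ cells than in whole testis. Between the preparations, 10 were higher and 9 lower in Sertoli cells. Amhr2, the receptor of anti-Müllerian hormone, was about 7-fold and Nr0b1 5.6-fold higher there, while Pdgfra was 6.18-fold and Akr1c14, a hydroxysteroid dehydrogenase gene, 4.14-fold lower. Amhr2, Nr0b1 and Gata4 averaged 1147, 788 and 729 in Sertoli cells and 230, 95.5 and 118 in tubules. Which cells gave the signals of this list was not tested, in tubules or in the other preparations. The shares of all probe sets called in each comparison are those given above for the 14.

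Within tubules the question was whether levels changed along the cycle of the epithelium. Of the 14 probe sets 7, of 7 genes, exceeded 43.7 in at least 3 of the 49 tubule samples and were tested. Cyp17a1, Hsd3b1, Hsd11b1 and the dimmer probe sets of Star, Lhcgr, Nr5a1 and Scarb1 did not reach that level. Star 1368406_at was the 1 of 7 called stage-regulated, beside 32.5% of 22258 probe sets tested. It was 51.0, 72.2, 40.5, 64.7 and 64.7 at stage VIIc,d and 7.05, 44.3, 26.3, 26.1 and 22.7 at stage II-III, with means of 58.6 and 25.3 (2.26-fold, adjusted p = 0.000656 by limma's F-test over 10 stage means). The 2 stages overlapped. At stage II-III replicate 1 was lowest, and without it the range fell under 2-fold (log2 range 0.90). The dimmer 1387174_a_at did not follow this course, with r = 0.027 between the 2 probe sets over the 10 stage means. Hsd17b3 (2.17-fold between stages VIIc,d and IX-XI, adjusted p = 0.134) and Scarb1 1386956_at (2.00-fold between VIII and I, adjusted p = 0.108) were not called. Without 1 sample each passed, Hsd17b3 without stage IX-XI replicate 5 (adjusted p = 0.0414) and Scarb1 without stage VI replicate 4 (0.0442). For Cyp11a1, Insl3, Lhcgr and Nr5a1 adjusted p was between 0.13 and 0.95. Of the longer list, 11 of 27 tested genes were stage-regulated. Ephx1, a detoxifying hydrolase, had 1312 at VIIa,b and 115 at I (11.2-fold), and Amhr2 428 at VIIa,b and 64.9 at XII (6.21-fold). Soat1, which esterifies cholesterol, had 113 at XIII-XIV and 20.4 at VIIa,b (5.18-fold), and Fdx1, the electron carrier of Cyp11a1, 1011 at VIIa,b and 286 at I (3.5-fold).

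**Figure D4:**
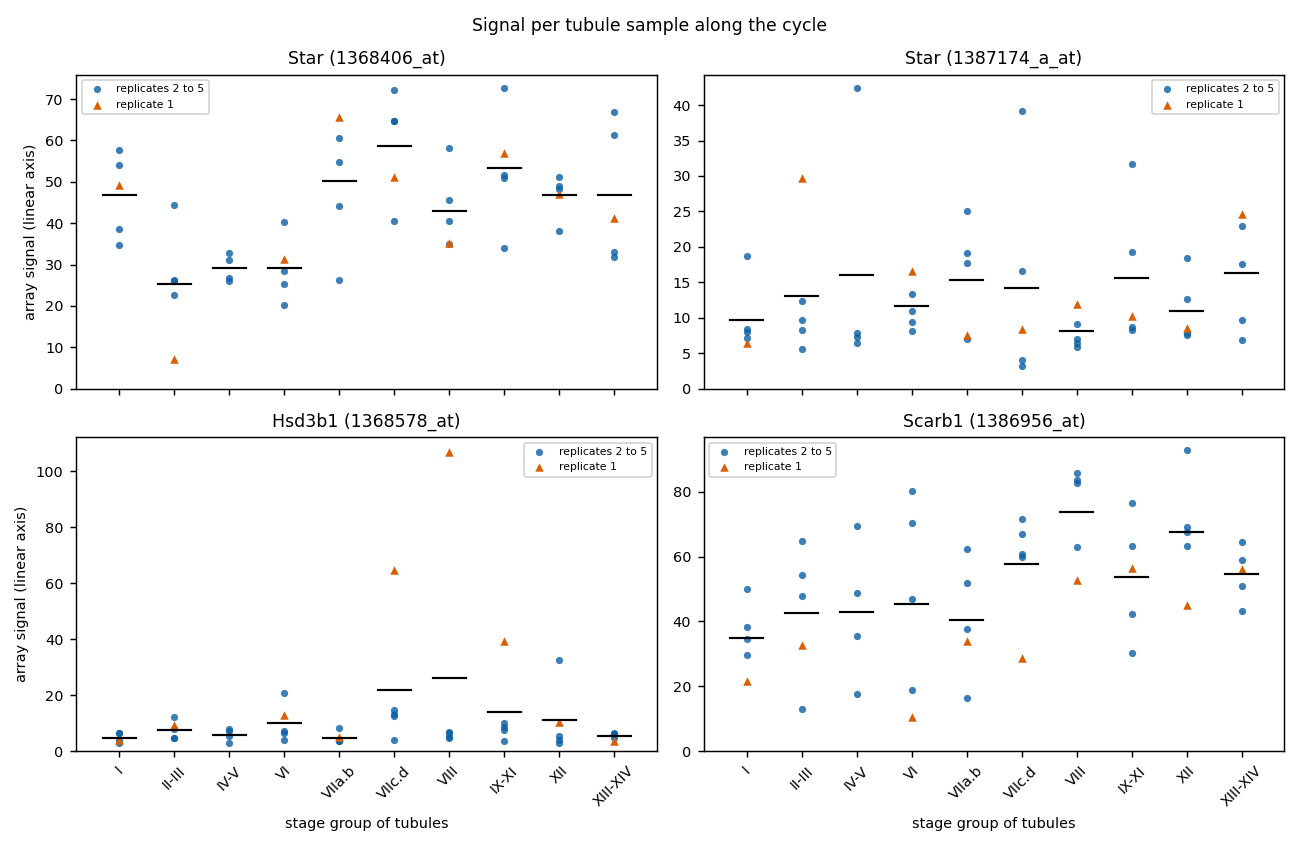
Array signal of each tubule sample (points, linear axes of unlike range) by stage group, with replicate 1 as triangles and group means as bars, for Star, Hsd3b1 and Scarb1. Star 1368406_at has its highest mean, 58.6, at VIIc,d and its lowest, 25.3, at II-III, and Hsd3b1 has single high samples, up to 107 at VIII.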

How the data were processed

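The 69 arrays gave 1 signal intensity per probe set on a linear scale. Per the submitters' processing notes, the deposited intensity values were made with MAS5, for which no version was given. The deposited arrays share 1 scale: trimmed by 2% on either side, each has a mean signal of 99.99. No detection call or genome build was part of the table. Of 31099 probe sets, 57 controls were left out. Symbols came from the platform annotation (20826 probe sets with 1 gene each, 436 with several, 9780 unlisted) and were updated for 20758 through RefSeq annotation (assembly GRCr8).

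Values were tested as log2(signal + 5.11), 5.11 being the 10th percentile of all signals, with R 4.3.3 and limma 3.58.1 (linear model, moderated statistics with a trend, two-sided). A probe set was tested where its signal exceeded 43.7 in at least 3 samples of the fit. A fit of 69 samples in 15 groups gave 8 contrasts, in which tubules are the mean of 10 stage means, and an F-test over 49 tubule samples gave stage differences. p-values were adjusted by Benjamini-Hochberg over all probe sets tested. A change was called at an adjusted p under 0.05 and at least 2-fold. Precision is limited by the number of arrays (3 to 5 in a group). The procedure was tested on simulated data. Fold changes between groups are means over log2 values and so differ from ratios of mean signals.

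All probe sets paired with exactly 1 of the 10 genes are named. Of the wider list at most 6 genes with the largest change are named per comparison, and likeness was the correlation over 15 group means of log2 values with the mean of the 10 centred patterns. Members and lists were chosen with earlier results of these data known. Alternatives were 1 or 32 added before log2, no filter, a filter at a signal of 100, quantile normalization, no trend, the replicate number as a block, only the samples contrasted, and each sample left out in turn.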

Additional observations from a re-analysis of the deposited data

Results flagged for a closer look

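Within groups of 4 or 5 samples, 1 sample stood apart from the others in 17 of 196 sets of values tested for it. Chance gives about 1 in 20, or 9.8, where values are normally distributed. The values were linear signals, which need not be so distributed, and the 17 are not read as an excess. A sample was set apart where its gap to the nearest other sample, as a share of the whole range of the group, exceeded Dixon's critical value at the 95% level. Hsd3b1 was high in replicate 1 of 3 neighbouring stage groups, with 64.9 at VIIc,d (others 4.07 to 14.9), 107 at VIII (others 4.79 to 6.83) and 39.5 at IX-XI (others 3.54 to 9.94), and in replicate 5 at XII with 32.5 (others 2.82 to 10.3). In the same replicate 1 samples Insl3 was 91.5 at VIII (others 18.7 to 37.8), Scarb1 1367855_at was 58.2 at IX-XI (others 10.4 to 17.6), Nr5a1 1393286_at was 98.7 at VIIc,d, and Scarb1 1386956_at was low at VIIc,d with 28.8 (others 59.9 to 71.5).

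Star 1387174_a_at was high in single samples at stages I (18.6), II-III (29.8) and IV-V (42.3, others 6.41 to 7.85). Cyp17a1 was 11.2 in 1 sample of IV-V and 20.8 in 1 of XIII-XIV, and Scarb1 1367855_at 35.8 in 1 of XIII-XIV. Low single samples were Cyp11a1 at VIIa,b (54.0, others 81.1 to 90.8) and Lhcgr 1387423_at at stage I (23.6, others 68.2 to 83.6). Hsd11b1 in Sertoli replicate 2 was 1261 (others 885 to 941). The cause of these values was not tested.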

How the results depend on the processing

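Over 8 alternative settings and 69 samples left out in turn, 125 of 135 counts stayed within 1.5 times and 612 of 635 single changes kept their direction and side of the threshold under the settings, as did 619 of 627 counts and 2723 of 2763 single changes without 1 sample. With 1 added before log2, 2 probe sets (Star 1387174_a_at and Scarb1 1386956_at) were lower in pachytene spermatocytes. With 32 added, 0 were higher in pachytene spermatocytes, 0 higher and 0 lower in round spermatids, and 0 stage-regulated, since a larger constant shrinks changes of low signals. With the filter at 100, 0 were stage-regulated and 2 higher in Sertoli cells than in early germ cells, as fewer were tested. The fit of only the samples contrasted gave 0 higher in round spermatids, where neither Cyp17a1 nor Hsd3b1 passed the filter. Quantile normalization gave 2 higher in pachytene spermatocytes and 0 lower in round spermatids, and the cause was not tested. Quantile normalization moved the median of all probe sets by between -0.16 and 0.22 in log2, and of those called in round spermatids 40.7% in place of 26.4% were higher.

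Without 1 sample, the number higher was 8 to 9 in whole testis, 13 throughout in Sertoli cells and 12 throughout in early germ cells against tubules, 1 to 2 in pachytene spermatocytes (0 to 1 lower) and 1 to 2 in round spermatids (1 lower throughout). It was 11 to 12 in Sertoli cells and 10 throughout in early germ cells against whole testis, 3 to 4 (2 to 4 lower) between them, and 0 to 2 were stage-regulated. Over the settings 27 of 67 called changes moved by over 1.5 times in size, among them Nr5a1 1369859_at in Sertoli cells (3.38- to 22.7-fold against tubules, 3.4- to 24.2-fold against whole testis, 3.29- to 21.4-fold against early germ cells). Changes near 0 turned sign. Hsd17b3 in whole testis against tubules was -0.0005 with 32 added and -0.0539 to 0.14 without 1 sample, and in early germ cells against whole testis -0.0171 after quantile normalization and -0.22 to 0.33 without 1 sample. Insl3 in early germ cells against whole testis was 0.46 after quantile normalization and -0.23 to 0.10 without 1 sample, and Nr5a1 1393286_at in Sertoli cells against early germ cells -0.19 to 0.12 without 1 sample. In pachytene spermatocytes Cyp17a1 was called higher without replicate 2 (1.01) or 3 (1.31), and Scarb1 1386956_at lower without replicate 2 (-1.06).

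Replicate numbers were shared between groups. Same-numbered tubule samples deviated together by a small amount (mean r = 0.0543 over 216 pairs, -0.09 to 0.214, against a mean of -0.013 between different numbers). Yet 37 of 49 correlated best with their own number, out of up to 5 numbers, so that this sharing was regular. The main fits left the replicate number out, and the cause of the sharing was not tested. With the replicate number as a block, 9 probe sets were higher in whole testis, 13 in Sertoli cells and 12 in early germ cells than in tubules, 1 was stage-regulated, and no call changed. Low signals with no detection call limit what can be said of Cyp17a1, Hsd3b1 and Hsd11b1 in tubules.

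Of all probe sets, the number called in a comparison moved by over 1.5 times as follows. With 32 added, 191 in place of 622 were higher and 16 in place of 276 lower in whole testis than in tubules, 4186 in place of 8539 lower in Sertoli cells, 2371 in place of 3693 lower in early germ cells, 801 in place of 1520 higher and 1095 in place of 2601 lower in pachytene spermatocytes, and 447 in place of 905 higher and 867 in place of 2519 lower in round spermatids. Against whole testis, 3064 in place of 7365 were then lower in Sertoli cells and 3263 in place of 5058 higher in early germ cells, and 2113 in place of 6540 were lower in Sertoli cells than in early germ cells. With 1 added, 614 were lower in whole testis than in tubules. With the filter at 100, 89 were lower in whole testis and 4233 in Sertoli cells than in tubules, and 4025 in Sertoli cells than in whole testis. Between Sertoli cells and early germ cells 2677 were lower with that filter and 3212 after quantile normalization.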
